A study of Mus musculus with 4 samples.

Results

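Slug peaks from one mouse cell line overlapped Snail peaks from another at 2898 places away from the outer ends of genes. These places are the peaks of the Slug list with a score under 500 that overlap a Snail peak by at least 1 bp and whose midpoint is more than 1 kb from the start and the end of every RefSeq gene. They are 6.96% of the 41612 Slug peaks, and 2697 of the 28375 Snail peaks lie over them. The sites were chosen by their Slug score, their overlap with Snail and their distance from gene ends, so these values are descriptions only. The 2 peak lists come from the epithelial line pBl.1G, labelled as high in Slug, and the mesenchymal line pBl.3G, labelled as high in Snail, both breast cancer lines of MMTV-PyMT mice. The viral MMTV promoter of these mice directs a polyoma virus oncogene to mammary epithelium. Cells were untreated and were fixed in 1% formaldehyde for 10 min. Slug was precipitated with the rabbit monoclonal C19G7, and the Snail library with an antibody whose label names SNAIL and SLUG both. Factor, antibody and line all differ between the libraries and each is a single library, so these cannot be told apart. The files hold no expression, so the labelled cell states were not checked against marker genes.

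Slug (gene Snai2) and Snail (gene Snai1) are zinc finger repressors of one family. They bind the E-box CAGGTG, which reads CACCTG on the other strand, and are best known for silencing the E-cadherin gene Cdh1 during epithelial-mesenchymal transition (EMT), in which epithelial cells lose their junctions and become motile. Slug is also active in the basal cells of the normal mammary gland. Regulatory DNA away from gene ends includes enhancers and the inner start sites from which a gene makes shorter transcripts.

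The inner start sites are the places where sequence can be shown. RefSeq annotates 4728 promoter windows, each running from 250 bases before to 50 bases after a transcription start, whose start lies more than 1 kb from every gene end. Of these, 73 windows, belonging to 69 genes, were overlapped by 70 of the shared sites. The site midpoint lay upstream of the start at 35 sites and downstream at 35, at a median distance of 103 bp. Below are the stretches where the Slug peak and the window coincide, from RefSeq on GRCm38.p6, 5′ to 3′ on the strand of the gene, with CAGGTG or CACCTG in capitals. The first group holds the motif and has the highest Snail scores among stretches of at least 100 bases with it. It comprises Zfp638 (a zinc finger protein), Pfkfb2 (a regulator of glycolysis), Slco2a1 (a prostaglandin transporter), Aktip (a partner of the kinase Akt) and Cmtr2 (an mRNA cap methyltransferase).
Zfp638, chr6:83914156-83914402, plus strand: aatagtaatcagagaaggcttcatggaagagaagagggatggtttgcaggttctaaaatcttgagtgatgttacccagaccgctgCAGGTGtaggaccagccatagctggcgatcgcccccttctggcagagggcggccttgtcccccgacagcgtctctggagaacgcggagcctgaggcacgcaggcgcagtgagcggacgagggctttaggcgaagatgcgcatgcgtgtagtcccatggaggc
Pfkfb2, chr1:130715795-130715936, minus strand: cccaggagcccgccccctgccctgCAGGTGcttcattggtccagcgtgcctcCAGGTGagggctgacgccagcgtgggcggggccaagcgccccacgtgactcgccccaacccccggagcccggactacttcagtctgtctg
Slco2a1, chr9:103008237-103008536, plus strand: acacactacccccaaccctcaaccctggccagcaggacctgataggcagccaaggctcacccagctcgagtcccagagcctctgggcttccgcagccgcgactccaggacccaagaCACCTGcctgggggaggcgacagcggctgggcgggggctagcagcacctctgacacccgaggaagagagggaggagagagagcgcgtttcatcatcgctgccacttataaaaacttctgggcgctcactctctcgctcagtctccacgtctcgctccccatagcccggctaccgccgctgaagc
Aktip, chr8:91133690-91133848, minus strand: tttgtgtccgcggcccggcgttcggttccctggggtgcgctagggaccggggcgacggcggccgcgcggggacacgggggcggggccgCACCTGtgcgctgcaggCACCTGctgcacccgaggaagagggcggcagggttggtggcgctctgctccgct
Cmtr2, chr8:110217882-110218009, plus strand: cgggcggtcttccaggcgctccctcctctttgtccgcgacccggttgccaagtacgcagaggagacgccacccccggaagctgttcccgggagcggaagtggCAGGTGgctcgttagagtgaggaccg

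The next group shows the sites at inner starts of genes from the epithelial lists, none of which holds the motif in the shared stretch. Ctnnd1 encodes p120-catenin, which holds E-cadherin at the membrane, Cgn the tight junction protein cingulin, and Tfap2a the transcription factor AP-2 alpha.
Ctnnd1, chr2:84650691-84650748, minus strand: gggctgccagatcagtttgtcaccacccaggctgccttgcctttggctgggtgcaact
Cgn, chr3:94786433-94786656, minus strand: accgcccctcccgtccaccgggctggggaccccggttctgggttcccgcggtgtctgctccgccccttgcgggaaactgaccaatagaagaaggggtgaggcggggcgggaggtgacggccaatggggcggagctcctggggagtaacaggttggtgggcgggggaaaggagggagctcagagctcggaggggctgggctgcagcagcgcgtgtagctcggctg
Tfap2a, chr13:40733766-40734021, minus strand: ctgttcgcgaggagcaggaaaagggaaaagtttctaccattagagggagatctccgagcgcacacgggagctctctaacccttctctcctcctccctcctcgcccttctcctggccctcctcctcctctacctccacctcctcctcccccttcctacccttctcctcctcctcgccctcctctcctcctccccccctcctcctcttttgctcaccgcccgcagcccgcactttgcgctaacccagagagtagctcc

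The last group has the site with the highest Snail score of all those at inner starts, Trmo (a tRNA methyltransferase), without the motif, and Bbc3, which has it. Bbc3 encodes the death factor Puma, which Slug is known to repress in mouse blood progenitors.
Trmo, chr4:46389387-46389615, minus strand: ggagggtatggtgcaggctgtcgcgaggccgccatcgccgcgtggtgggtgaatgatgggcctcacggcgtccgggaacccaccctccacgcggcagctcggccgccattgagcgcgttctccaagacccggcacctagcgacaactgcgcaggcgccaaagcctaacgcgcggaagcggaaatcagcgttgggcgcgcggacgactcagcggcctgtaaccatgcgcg
Bbc3, chr7:16310369-16310480, plus strand: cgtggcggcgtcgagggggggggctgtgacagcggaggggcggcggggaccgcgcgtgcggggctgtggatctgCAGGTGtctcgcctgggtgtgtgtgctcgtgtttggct

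Windows under a shared site held the E-box more often than other inner starts. It was present in 29 of 73 windows (39.7%, 95% interval 29.3 to 51.2), against 20.4% (19.3 to 21.6) of all 4728 and 20.2% of the 32851 windows of all starts. Inner starts with a Snail peak and no Slug peak held it in 18.2% of 1230 cases (16.2 to 20.5), and those with neither factor in 20.6% of 3381. Inner starts with an unshared Slug peak held it in 10 of 32 cases, with an interval up to 48.6% that overlaps that of the shared sites. The looser pattern CANNTG, of which the E-box is a special case, was no more frequent under shared sites (72.6%, 61.4 to 81.5) than at all inner starts (74.0%), and was present in 64.1% of those with Snail alone. The median GC content was 63.0% under shared sites, 61.3% with Snail alone and 51.7% over all inner starts, and the part of base composition in the motif shares was not tested. These shares describe letters within the whole windows and not bound bases. In 24 of the 29 windows the motif lay in the stretch that the Slug peak overlaps.

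**Figure D1:**
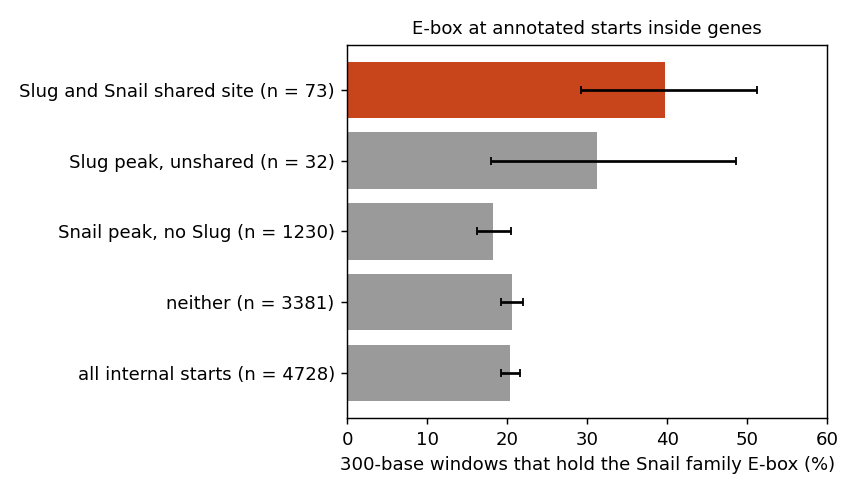
Share of 300-base promoter windows at annotated starts inside genes that hold CAGGTG or CACCTG (horizontal axis, percent), by which peaks overlap the window. Bars are shares and lines 95% Wilson intervals. The windows under shared sites reach 39.7%, those with a Snail peak and no Slug peak 18.2%.

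The 70 sites at inner starts carried high Snail scores. Their Snail peaks scored from 52.8 to 2437 with a median of 748 (524 to 878), against 103 (99.2 to 108) for the 1595 sites elsewhere in gene bodies and 100 (95.2 to 106) for the 1233 sites between genes. Shared sites under the same Slug limit at the outer ends of genes had a median Snail score of 729 (683 to 765), an interval that lies within that of the inner starts. The median Slug score was 85.6 (76.6 to 102) at inner starts, 101 (96.5 to 106) elsewhere in genes and 108 (102 to 115) between genes, and the interval of the inner starts overlaps both others. Scores rank peaks within their own list, so a Slug and a Snail score side by side do not compare strength.

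Single sites at inner starts varied widely in both scores. At the inner start of Trmo the Slug peak at chr4:46389387-46389615 scored 78.6 and the Snail peak over it 2437. At an inner start of Cdkn1a, which encodes the cell cycle inhibitor p21, the Slug peak at chr17:29093720-29094250 scored 264 and the Snail peak 1542. Rassf1, a tumour suppressor gene with several known promoters, scored 164 for Slug and reached 1550 for Snail. Bbc3 had a Snail score of 524 over a Slug peak of 56.5. The Snail score was 846 at Ctnnd1, 520 at Cgn and 404 at Tfap2a. Meis2, a homeobox gene, had the lowest Snail score of the 70 sites, 52.8, over a Slug peak of 213.

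Inner starts set the shared sites apart from unshared Slug peaks but not from Snail peaks. Of the shared sites on chromosomes in the window table, 2.50% (1.98 to 3.15) overlapped an inner start window, against 0.0988% (0.0700 to 0.140) of unshared Slug peaks under the same limits. Among Snail peaks the share was 4.11% (3.41 to 4.94) for those over a shared site and 4.06% (3.73 to 4.42) for those off gene ends with no Slug peak. Snail peaks covered 27.8% of all inner start windows and Slug peaks 2.47%. Of the 104 shared sites whose Snail score reached 1000, 24 lay at an inner start.

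**Figure D2:**
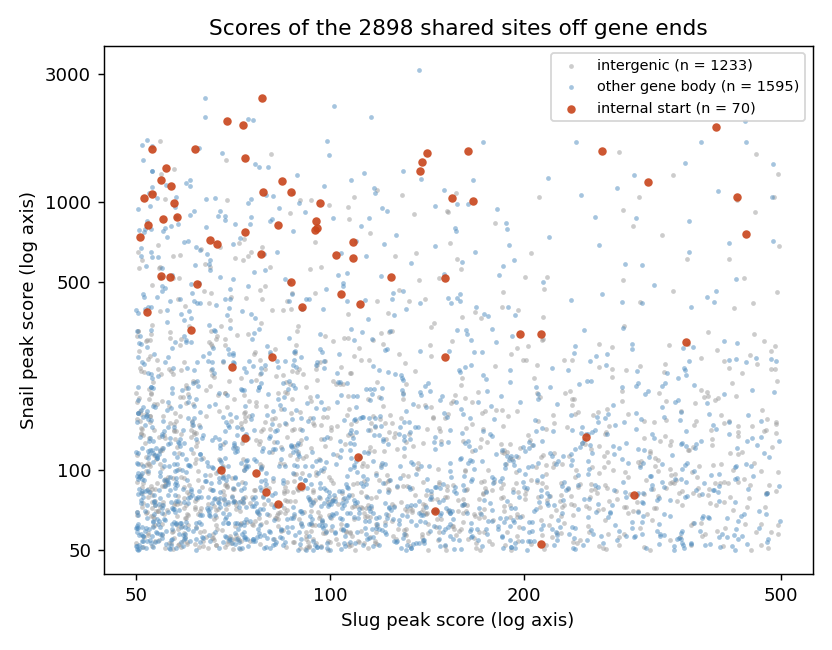
Slug peak score (horizontal, log axis) against the score of the Snail peak over it (vertical, log axis), 1 point per shared site, coloured by place. Sites at inner starts lie mostly in the upper part, with a median Snail score of 748, while the other sites crowd near 100.

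The Slug peak usually lay whole within the Snail peak. This held for 2105 of the 2898 sites (72.6%), and 94.6% had the Slug midpoint inside the Snail peak. The midpoints of the partners were a median of 90.5 bp apart (quartiles 32 and 235 bp), while only 57 sites touched their Snail peak by fewer than 50 bp. The median Slug peak was 259 bp wide (quartiles 199 and 360), against 199 bp for unshared Slug peaks off gene ends, and the median Snail peak over a site 579 bp. A wide peak overlaps more easily, and with the Slug peaks under these limits in 5 equal classes of width, 19.2% of the widest class were shared, against 3.43% of the narrowest. The Snail peaks over the sites were as wide by the median, 565 bp, as Snail peaks off gene ends without Slug. Their median score was 102 (97.7 to 105) against 91.2 (90.0 to 92.5), a difference of 11.1 (6.29 to 13.9). The distance limit was set on the Slug midpoint, so Snail peaks over the sites could lie nearer to a gene end than those compared. Without sites whose Snail peak reaches a gene end the score difference was 8.13 (3.62 to 12.2). With both scores at least 100 it was 5.81 (-8.21 to 16.1), an interval that spans both signs. With a reciprocal overlap of 50% the score difference turned to -12.8, and the Snail peaks over the 1078 sites left were narrower by the median, at -120 bp. This limit keeps a Snail peak only where the Slug peak overlaps at least 50% of it. It therefore removes wide Snail peaks by design, and the narrower width is no finding.

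Slug peaks with higher scores were shared more often, though peak width, which also went with sharing, was not held fixed. Of the 36469 Slug peaks that met the score and distance limits, 7.95% overlapped a Snail peak. The share was 4.92% for scores from 50 to 60, 9.37% from 100 to 150 and 14.4% (13.2 to 15.6) from 250 to 500. Above the limit of the rule it was 45.3% of 999 peaks, which are not counted here. The 5 sites just inside the limit scored 495 to 499 and the 5 shared peaks just outside it 502 to 509. The site just inside at Nkd1, which encodes an inhibitor of Wnt signalling, scored 497 for Slug under a Snail peak of 86.9. The sites closest to a gene end lay 1001 and 1002 bp from it, and the closest shared peaks left out 997 to 999 bp.

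**Figure D3:**
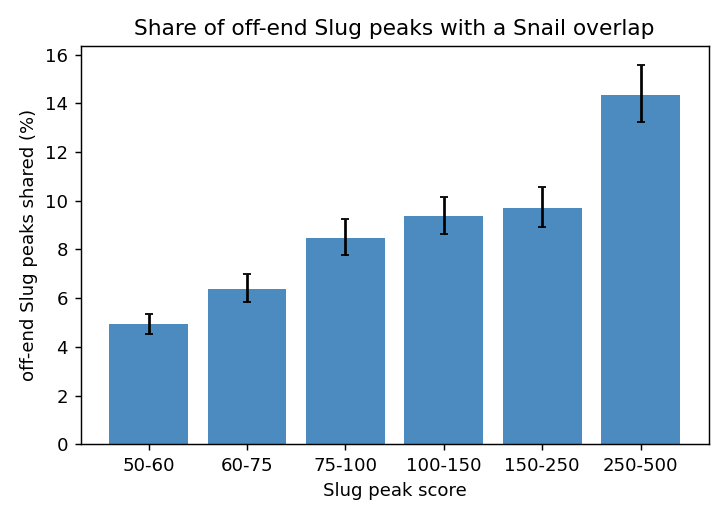
Share of Slug peaks off gene ends that overlap a Snail peak (vertical, percent) by Slug peak score (horizontal). Bars are shares and lines 95% Wilson intervals. The share runs from 4.92% in the lowest class to 14.4% in the highest class under the limit.

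The shared sites were nearer to gene ends than unshared Slug peaks, even beyond the excluded 1 kb, but not nearer than Snail peaks without Slug. Their median distance to the nearest gene end was 10.2 kb (quartiles 4.12 and 23.9 kb), against 15.3 kb (quartiles 5.78 and 39.1 kb) for unshared Slug peaks. For Snail peaks off gene ends without Slug the median was 8333 bp (8113 to 8591). In the widest of 5 classes of Slug peaks, which holds 1400 of the sites, the medians lay closer, at 10848.5 and 12014.5 bp. Averaged over the 5 width classes with equal weight, the difference from unshared Slug peaks was -5.23 kb, against -5.09 kb without classes. The share of Slug peaks that were shared was 13.1% (11.8 to 14.5) at 1 to 2 kb from a gene end, 8.40% at 10 to 20 kb and 4.38% (3.69 to 5.18) beyond 100 kb. Median Snail scores over the sites were 158 in the nearest class and 85.2 in the farthest. At 68 sites the Snail peak itself reached a gene end, with a median score of 682 and a median width of 2587 bp. Without these the Snail peaks over the sites had a median score of 103.

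**Figure D4:**
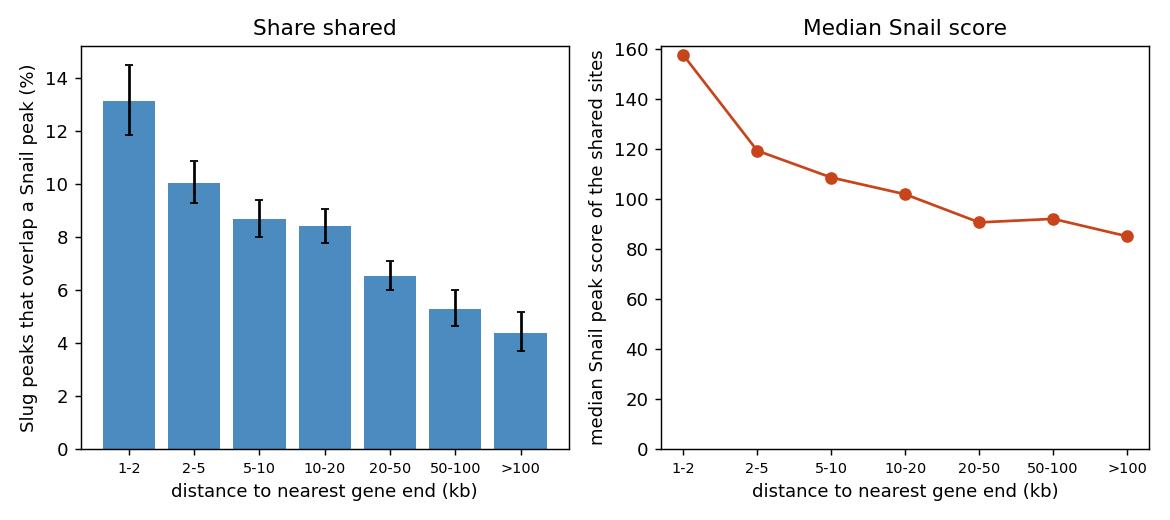
Left, share of Slug peaks under the score limit that overlap a Snail peak (percent, with 95% Wilson intervals) by distance to the nearest gene end. Right, median Snail peak score of the shared sites in the same classes. The share goes from 13.1% at 1 to 2 kb to 4.38% beyond 100 kb, and the median Snail score from 158 to 85.2.

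Gene bodies held 1665 of the sites (57.5%, 55.6 to 59.2), against 54.2% (53.6 to 54.7) of unshared Slug peaks and 61.6% of Snail peaks off gene ends without Slug. The difference from unshared Slug peaks, 3.30 percentage points (1.41 to 5.16), was small and unstable. It was 1.78 (-0.23 to 3.77) beyond 2 kb from gene ends, 2.13 (-0.14 to 4.38) beyond 5 kb and -0.72 with a reciprocal overlap of 50%. Among the widest of 5 classes of Slug peaks, with 1400 of the sites, the shares were 56.6% and 59.5%. Averaged over the 5 width classes with equal weight, the difference was 3.66 points. Within a protein-coding gene of known strand, cut into 5 equal lengths from the 5′ end, 26.1% (23.6 to 28.8) of 1103 sites lay in the first length and 15.1% (13.1 to 17.4) in the last. Of unshared Slug peaks 19.9% (19.1 to 20.6) lay in the first length, and of Snail peaks without Slug 24.8% (23.6 to 25.9). Whether a site lay in an exon or an intron was not analysed here. Chromosome 19 carried 4.55% of the sites (3.85 to 5.38) and 2.44% of the unshared peaks, and chromosome X 1.86% and 2.92%.

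Shared sites often had company. Another Slug peak lay within 10 kb of 51.7% of them (49.9 to 53.5) and of 34.5% (34.0 to 35.0) of unshared Slug peaks, and 3 or more others lay there for 6.49% and 1.68%. The difference, 17.2 percentage points, was 9.36 without the sites that share a Snail peak. A single Snail peak overlapped 2 shared sites in 183 cases, 3 in 12 and 4 in 2, which involved 405 sites. Inside Myo3a, which encodes an unconventional myosin of hair cells, 4 Slug peaks with scores of 172 to 441 lay under a Snail peak at chr2:22587189-22590385 with a score of 1664. The other Snail peak with 4 sites lies near the low-coordinate end of chromosome 18, with a score of 1012 and Slug scores from 69.2 to 428. The longest Snail peak over sites, 8426 bp inside the span of Tmem267, covered Slug peaks of 1178, 3654 and 1688 bp. No annotation of repeats or of artefact-prone regions was used here, so the part of such sequence in these broad pairs, and in the sites near the low-coordinate ends of chromosomes named below, was not tested. 

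The sites with the highest Snail scores ranged widely in Slug score. Inside gene bodies they belonged to Cldn34d, a claudin family gene on chromosome X (Snail 3100, Slug 137), to both sites inside Trmo (Snail 2437, Slug 64.1 and 78.6), to Anapc5, a subunit of the anaphase-promoting complex (2271 and 101), and to Nfyc, a subunit of the CCAAT-binding factor NF-Y (2071 and 64.0). Between genes the top site, at chr11:3099984-3100675 and 31.5 kb from Sfi1, scored 2262 for Snail and 284 for Slug. It lies near the low-coordinate end of its chromosome, as does the pair on chromosome 13 below. The next had Ccr1 (38.3 kb away, Snail 1685) and Bahcc1 (23.6 kb, 1531) as nearest protein-coding genes. The remaining pair shares the Snail peak at chr13:3372676-3374338, score 1512, over Slug peaks of 457 and 81.1, 164 kb from Gdi2. The site farthest from any gene end, 507 kb, was 1 of 3 that overlapped a Snail peak of 505 bp on chromosome 4 with a score of 256.

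Sites were sparse around any single gene. Of 21887 protein-coding genes, 1739 (7.95%) had a shared site in their span or within 10 kb of it, 5.3% had one in the span alone and 9.77% were the nearest such gene to one. An unshared Slug peak off gene ends lay in the same window of 43.6%. Of the 1739 genes 1437 had 1 site and 247 had 2. For microRNA genes the share was 2.93% and for long noncoding RNA genes 5.05%. Longer genes had them more often, with 2.54% in the shortest of 5 equal classes and 17.8% in the longest. Nav2, which encodes a large neuron navigator protein, had the most, 7 sites over 390 kb with Slug scores of 54.5 to 188 and Snail scores of 56.8 to 112. The same window held 18 unshared Slug peaks. Runx1, a transcription factor of blood and of luminal mammary cells, had 5 sites, with Slug scores of 99.7 to 347. The strongest Snail peak there spanned chr16:92696447-92699726 with a score of 921 over a Slug peak of 122, while the Slug peak of 347 lay at a Snail score of 182. Ttc28 and Tmem267 also had 5 sites, Gm7592 and Mid1 6, and 12 genes had 4, of which the shortest are Trmo, Muc6, Cryz and Itgad. The 6 sites of Mid1 lie within 13.8 kb across its high-coordinate end, at the edge of the region that chromosomes X and Y share. Those of Cryz and Itgad lie within 1.39 and 1.52 kb. How the authors placed reads that match several copies is not given in the sources used here, so counts at Gm7592 and at the end of Mid1 are uncertain.

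Of the 25 anchor genes of EMT and mammary biology, 5 had a shared site, against the 7.95% of all protein-coding genes and 10.6% of genes of like length. Here and below, like length means all protein-coding genes weighted by the list's spread over the 5 length classes. The longest class runs from 57.1 to 2390 kb, so length within a class was not matched. Cdh1 had 1, at chr8:106620907-106621186 and 17.7 kb inside the gene, with a Slug score of 163, beside 3 unshared Slug peaks. The Snail peak there, chr8:106618700-106620999 with a score of 322, covered only part of the Slug peak and not its midpoint. Krt18, which encodes a keratin of simple epithelia, had a Slug peak of score 130 at chr15:102029080-102029485, 1.07 kb inside the gene. The Snail peak there, chr15:102027834-102029131 with a score of 463, spans the gene start. It overlapped only the edge of the Slug peak and not its midpoint. The site of Cd44, a hyaluronan receptor and marker of stem-like breast cancer cells, lay 18.3 kb from its low-coordinate end with scores of 303 and 155. That of Ovol1, an epithelial transcription factor, lay 8.25 kb beyond its high-coordinate end with scores of 163 and 984. It was inside another gene and 2.43 kb from the nearest gene end. The site of Fn1 (fibronectin) lay 2.88 kb beyond its low-coordinate end with scores of 76.9 and 217. No shared site off gene ends lay in or near Epcam, Krt8, Krt14, Esrp1, Grhl2, Snai1, Snai2, Zeb1, Zeb2, Twist1, Vim, Cdh2, Itgb4, Lgr5, Axl, Sox9, Gata3, Elf5, Trp63 or Tgfbr2. Several of these had unshared Slug peaks of the same kind, among them Tgfbr2 with 6, Lgr5 with 5, and Zeb1 and Trp63 with 4 each.

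The EMT transcription factors stood at 0 of 19 genes, where 8.70% of genes of like length had a site. A count of 0 of 19 allows up to 16.8%, so the lack is within counting error. It also rests on the window and the score limit. By nearest protein-coding gene 5 of the 19 had a site (9.77% of all genes), within 50 kb 2 (18.2% of all genes), and without the upper Slug limit 1. Of these 19 genes, 17 had a Snail peak and 14 a Slug peak of any kind in the same window. Epithelial transcription and splicing factors had 2 of 20 (10.0%, 2.79 to 30.1, against 8.37% for like length). These were Ovol1 and Tfap2a, the latter with a further site 7.23 kb from its high-coordinate end (Slug 61.5, Snail 425).

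Among junction and polarity genes, 6 of 27 junction genes had a site (22.2%, 10.6 to 40.8), against 9.53% of genes of like length. Besides Cdh1, Cgn and Ctnnd1 these were Marveld3, a tight junction membrane protein (Slug 219, Snail 115), Cldn4, a claudin (95.2 and 97.7), and Pkp1, a desmosomal plakophilin (97.3 and 61.5). Of 16 polarity genes 2 had a site (12.5%, 3.50 to 36.0, against 10.3%), with 2 sites at Pard6b and 1 at Pard3. The Pard6b site with the higher scores, 5.61 kb beyond the high-coordinate end, scored 70.2 in the Slug list under a Snail peak of 442. The Pard3 site was weak in both lists, at 69.6 and 63.2, and 20 unshared Slug peaks lay in the same window.

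Within 10 kb, Notch, Hippo and adhesion genes had the highest shares of the lists. The rank of Hippo and adhesion genes depended on the window. By nearest gene, 10 of 29 mesenchymal and 9 of 25 anchor genes had a site, against 7 of 22 Hippo and 8 of 27 adhesion genes. Notch genes had 7 of 18 by that rule, still the highest share, where 9.77% of all protein-coding genes had a site. Of 18 Notch genes 5 had a site (27.8%, 12.5 to 50.9, against 9.23% for like length). Maml3, a coactivator of Notch, had 3, the one with the highest Slug score at 361 under a Snail peak of 648, and Rbpj, the DNA-binding partner of Notch, had 2 under a Snail peak of 826. Maml2 had 2, and Dll4, a Notch ligand, and Lfng, which modifies the receptor, had 1 each. Of 22 Hippo genes 6 had a site (27.3%, 13.2 to 48.2, against 12.2%), the highest Slug score being 377 at the kinase gene Stk3, where the Snail score was 65.8. The others were Vgll4, Sav1, Ajuba, Ptpn14 and Nf2, with Slug scores from 50.3 to 130. The Nf2 site lay 7.13 kb beyond its low-coordinate end, inside another gene. Of 27 actin and focal adhesion genes 7 had one (25.9%, 13.2 to 44.7, against 12.5%). Tns3, which encodes a tensin, had 2, with Slug scores of 72.0 and 330, and Pxn (paxillin) had one with scores of 298 and 205. The site near Rhoa lies at an inner start of its neighbour Usp4. With 18 lists compared and no test, these counts are descriptions. They fell with stricter limits: with both scores at least 100, 3 Notch, 1 Hippo, 1 adhesion and 3 junction genes had a site, while the count over all protein-coding genes went from 1739 to 526. With a reciprocal overlap of 50% the counts were 1, 1, 2 and 2, and 629 over all.

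The other lists had intervals that include the share of genes of like length. Mesenchymal genes had 5 of 29 (17.2%, 7.60 to 34.5, against 10.0%), with 2 sites each at Ncam1, a neural adhesion molecule, and Mmp2, a matrix metalloproteinase. The stronger Ncam1 site, 1.51 kb inside the gene, scored 279 for Slug and 1125 for Snail. The Mmp2 sites, 8.66 and 8.97 kb beyond the low-coordinate end of Mmp2, scored 61.3 and 53.3 for Slug and overlapped a Snail peak of 176. Pdgfra, a growth factor receptor, had scores of 106 and 542. Collagen and matrix genes had 3 of 22 (13.6%, 4.75 to 33.3, against 11.8%), with 2 sites in the basement membrane collagen gene Col4a2, and 1 of Slug score 243 in the laminin gene Lama3. TGF-beta and BMP genes had 3 of 27 (11.1%, 3.85 to 28.1, against 13.8%), led by Smad5, a BMP mediator (Slug 368, Snail 178), with Acvr1 at a Slug score of 192. The Acvr1 site lay 4.63 kb beyond its high-coordinate end, inside another gene. Wnt genes had 4 of 24 (16.7%, 6.68 to 35.9, against 12.05%), among them Tcf7l2 (Slug 137) and Lrp5 (130). Basal and myoepithelial genes had 3 of 17 (17.6%, 6.19 to 41.0, against 10.1%), with 2 sites at Cdh3, which encodes P-cadherin, the stronger at a Slug score of 198, and 1 each at Mylk and Itga6. Luminal genes had 2 of 18, Krt18 and Krt19 (11.1%, 3.10 to 32.8, against 9.02%). Among genes of other tissues the counts were 3 of 18 neuronal, 2 of 16 endothelial, 0 of 18 hepatocyte and 0 of 18 immune cell genes. Genes of like length had a site in 13.7, 10.3, 5.37 and 5.77% of cases in the same order, and a count of 0 of 18 allows up to 17.6%. The neuronal site with the highest Slug score, 389, lay in Rbfox3, and the endothelial genes were Flt1 and Pecam1. The median number of sites per gene was 0 in every list and over all protein-coding genes.

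**Figure D5:**
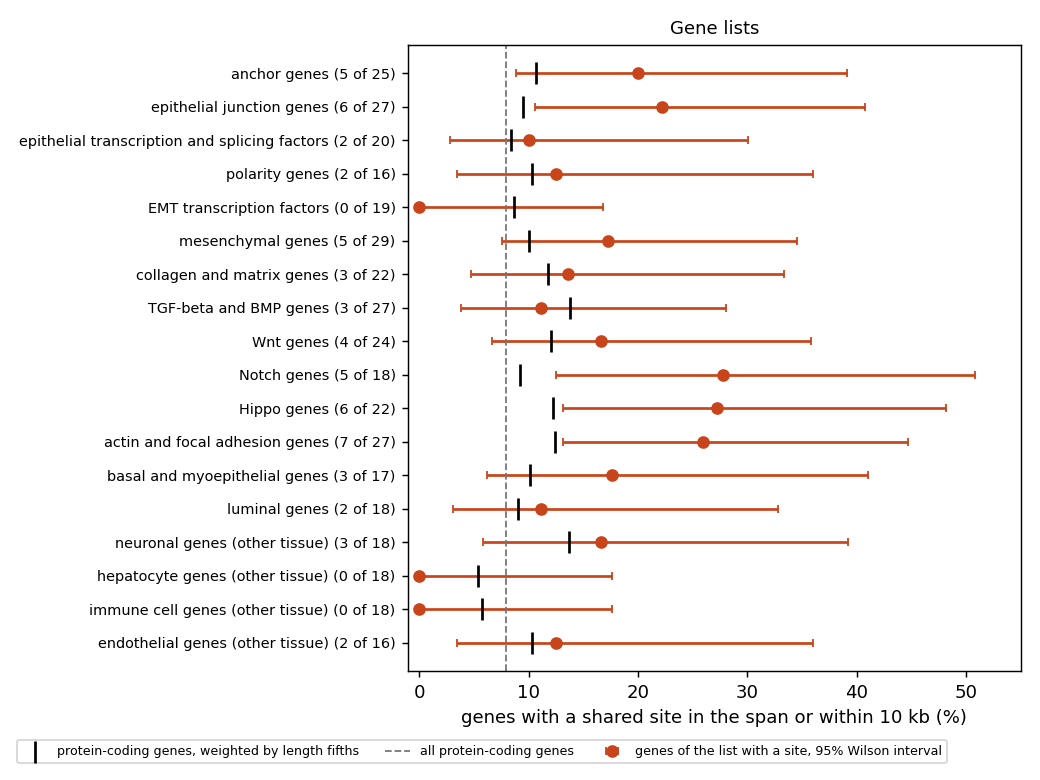
Share of genes with a shared site in the span or within 10 kb (horizontal, percent) for each gene list. Points are shares with 95% Wilson intervals, black ticks the share of all protein-coding genes weighted to the list's gene lengths in 5 classes, and the dashed line the 7.95% of all protein-coding genes. The highest share is that of the Notch genes, 27.8%, and 3 lists stand at 0.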

How the data were processed

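Chromatin immunoprecipitation was sequenced for Slug in pBl.1G cells and for Snail in pBl.3G cells, and the 1 deposited peak list of each was used. The submitters' processing notes list Bowtie, MACS 1.4.2 and mm10. Caller settings, the control and the Bowtie version were not given in the sources used here. The 2 input libraries were not used. A deposited line gives a peak's coordinates and the authors' score. By the convention of MACS the score is a log-transformed p-value, but the files do not state its scale, and sequencing depth is unknown.

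Starts were converted to 1-based positions in Python 3.11.15 (pandas 2.3.3, numpy 2.4.6, matplotlib 3.10.9, scipy 1.17.1). The RefSeq gene table of GRCm38.p6, which shares its coordinates with mm10, held 49943 genes on the assembled chromosomes, among them 21887 protein-coding genes. A table of 32851 RefSeq promoter windows of 300 bases gave strand, inner starts and sequence, without chromosome 18. It took the place of the planned motif count over whole peaks, which needs a genome, so the planned motif windows and the filter on repeats were not run. All 1913 pairs of overlapping windows on opposite strands were reverse complements of each other. Overlap and distance functions were tested on simulated data.

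The members, the 18 gene lists with 381 entries (all matched, 2 by synonym) and the comparisons were chosen with earlier results of these data known. The rule for named genes took 25 anchor genes whatever they showed, the 10 genes with the most sites (the shortest first among ties), the 5 sites inside and the 5 outside gene bodies with the highest Snail score, the 2 genes of each list with the most sites, and the sites on either side of the score limit. Other genes, and the sequences shown, were chosen after their values were seen. With 1 library per factor there is no replicate and no test. Intervals are 95% Wilson intervals for shares, order-statistic intervals for medians and square-and-add intervals for differences. They cover counting error only and treat neighbouring peaks as independent.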

Additional observations from a re-analysis of the deposited data

How the results depend on the processing

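With a reciprocal overlap of 50% there were 1078 sites, 2.96% of Slug peaks under the limits were shared and 629 genes had a site. Against unshared Slug peaks, the difference in gene body share was then -0.72 percentage points (main value 3.30). In distance to a gene end it was -2.19 kb (-5.09), and in the share with a Slug neighbour 10.1 points (17.2). Against Snail peaks off gene ends without Slug, the difference was -12.8 in Snail score (11.1) and -120 bp in Snail width (0). The midpoints lay 36 bp apart (90.5). With both scores at least 100 there were 754 sites, 5.43% shared and 526 genes. The same differences were then 0.23 points (-3.43 to 3.81), -3.47 kb, 12.9 points, 5.81 (-8.21 to 16.1) and -65.5 bp. The midpoints lay 100.5 bp apart. More than 5 kb from gene ends the values were 7.07% shared, 6.28 for Snail score, -18 bp for Snail width, 77 bp between midpoints and 967 genes. With 50% of the Slug peak covered 7.50% were shared, and beyond 2 kb from gene ends 7.56%, both with midpoints 83 bp apart. Against protein-coding gene ends alone 8.31% were shared. Without the upper Slug limit 8.94% were shared, the neighbour difference was 14.5 points, the Snail score difference 17.8 and the midpoints 76 bp apart. The neighbour difference was 14.98 points within 2 kb, 8.31 within 50 kb, 15.1 averaged over Slug width classes and 9.36 without sites that share a Snail peak, the last chosen after seeing the data. Within 50 kb, 3987 genes had a site. The motif difference between windows under a site and all inner starts was 19.3 points, 18.7 with 1 window per gene and -1.36 with CANNTG. The reciprocal limit itself removes wide Snail peaks, so the change in Snail width under it is set by the limit. The cause of the other changes was not tested. The motif result was not recomputed under the other overlap, distance and score limits, and the planned motif windows and repeat filter were not run. No paired analysis was possible because each factor has 1 library, and none could be left out. Depth is unknown, so whether a peak missing from a list was absent or not detectable cannot be told apart.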

Other observations

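Of 1228 microRNA genes, 36 (2.93%) had a shared site within 10 kb, close to the 2.54% of the shortest of 5 length classes of protein-coding genes. A site 8.26 kb from Mir29a, which together with the neighbouring Mir29b-1 makes microRNAs that target collagen mRNAs, scored 210 for Slug and 245 for Snail. A site 5.97 kb from Mir31, a microRNA studied in breast cancer metastasis, scored 110 for Slug and 152 for Snail. The cluster of Mir23b, Mir27b, Mir3074-1 and Mir24-1 had 1 site within 10 kb, with scores of 83.1 and 242. The site near Mir9-2 lay under a Snail peak of 960, with 52.7 for Slug. Of 12727 genes for long noncoding RNAs, 643 (5.05%) had a shared site in the span or within 10 kb. These genes were chosen after their values were seen.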
